A study of Mus musculus with 23 samples.

Results

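The hypoxia-inducible factors (HIFs) and their oxygen sensors were followed in brown adipose tissue (BAT) as a set of 9 genes, chosen by name: the HIF subunits Hif1a, Epas1 and Arnt, the prolyl hydroxylases Egln1, Egln2 and Egln3, the ubiquitin ligase subunit Vhl, the asparaginyl hydroxylase Hif1an, and Adm, which encodes the secreted peptide adrenomedullin and is a common HIF target. All 9 were among the 14651 genes in the table of normalized counts. Like the gene lists used below, they were chosen with earlier results of these data known. RNA was sequenced from the BAT of 23 male C57BL/6 mice of 8 to 12 weeks. Mice of both genotypes were homozygous for an Mcu allele with loxP sites around an exon (Mcu fl/fl). The 11 control mice, 6 at room temperature (RT) and 5 at 4°C, carried no Cre, and the 12 BAT-Mcu-KO (knockout) mice, 6 at each temperature, also carried Ucp1-Cre, in which the Ucp1 promoter drives the recombinase. Mcu encodes the pore of the mitochondrial calcium uniporter. Ucp1 is active in brown adipocytes, so other cells of the tissue, such as endothelial cells, are not known targets of this Cre. The deletion and the presence of the transgene cannot be told apart here. The cold-exposed mice spent 6 h at 4°C, housed singly without bedding or food in cages cooled beforehand, so cold and these housing conditions cannot be told apart.

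A HIF is a pair of an alpha subunit, HIF-1α (Hif1a) or HIF-2α (Epas1), and the constant partner ARNT. When oxygen is plentiful, the EGLN enzymes hydroxylate prolines of the alpha subunit, VHL binds the hydroxylated protein and it is degraded. Hif1an encodes a further oxygen-dependent enzyme, which hydroxylates an asparagine of the alpha subunit and blocks its contact with coactivators. This control acts on the protein, so the RNA levels given here do not measure HIF activity. BAT burns fuel at a high rate during cold exposure and is densely supplied with capillaries.

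Promoter windows of 4 genes are shown because 3 of them, Hif1a, Egln2 and Adm, rose in the cold in both genotypes, and the Egln3 window belongs to a prolyl hydroxylase gene that was not called changed. Each window holds the 250 bases before an annotated start (RefSeq, GRCm38.p6), read 5′ to 3′ along the gene's strand. Capitals mark the letters ACGTG or GCGTG, the core of the sites that HIFs bind, or their reverse complements CACGT and CACGC. Where 2 matches overlap, as in CACGTG, which reads the same on both strands, each was counted.
Hif1a: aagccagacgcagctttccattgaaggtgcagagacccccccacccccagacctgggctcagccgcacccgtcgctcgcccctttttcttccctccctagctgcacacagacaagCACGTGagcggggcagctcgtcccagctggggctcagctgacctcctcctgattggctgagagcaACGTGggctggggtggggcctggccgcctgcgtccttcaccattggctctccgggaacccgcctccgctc
Egln2: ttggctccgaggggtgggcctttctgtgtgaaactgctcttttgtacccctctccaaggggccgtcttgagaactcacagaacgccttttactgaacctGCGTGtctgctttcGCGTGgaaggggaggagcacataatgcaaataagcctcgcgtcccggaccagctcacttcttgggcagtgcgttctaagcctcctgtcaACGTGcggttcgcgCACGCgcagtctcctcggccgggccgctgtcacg
Adm: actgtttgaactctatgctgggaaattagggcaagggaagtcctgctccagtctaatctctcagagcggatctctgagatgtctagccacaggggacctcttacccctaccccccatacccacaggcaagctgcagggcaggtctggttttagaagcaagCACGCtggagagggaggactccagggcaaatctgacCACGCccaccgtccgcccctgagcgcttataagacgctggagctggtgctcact
Egln3: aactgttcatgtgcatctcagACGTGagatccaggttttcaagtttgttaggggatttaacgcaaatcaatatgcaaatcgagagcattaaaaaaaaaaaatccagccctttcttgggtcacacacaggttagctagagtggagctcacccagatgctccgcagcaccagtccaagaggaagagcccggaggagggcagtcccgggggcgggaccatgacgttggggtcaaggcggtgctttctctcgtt
The Hif1a window, at chr12:73907617-73907866 on the plus strand, had matches starting 135, 134 and 70 bases before the start, the first pair being both strands of 1 CACGTG. It lies inside the Hif1a gene model of GENCODE M21, upstream of one of the inner starts. In the Egln2 window, at chr7:27166803-27167052 on the minus strand, matches began at positions -151, -137, -48 and -34. The Adm window is at chr7:110627407-110627656 on the plus strand, with matches on the opposite strand at -90 and -54. The Egln3 window is at chr12:54203875-54204124 on the minus strand and had 1 match, at -229. Entries were found for 8 of the 9 genes, and 6 of the 8 had at least 1 match in 1 of their windows. Over all genes with a window, 41.5% had a match, and over all 32851 windows 38.6% had one and 6.02% held CACGTG. Genes that rose and a gene that was not called changed both had matches, and Hif1an, which rose, had none in its window.

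The libraries held 7129271 to 21006347 reads each, of which 23.1% to 38.1% came from mitochondrial genes. Normalized Mcu counts checked the genotype labels. They were 109.5 ± 22.5 (SD, n = 6) in control and 35.1 ± 10.03 (n = 6) in knockout mice at RT, and 107 ± 26.8 (n = 5) and 33.9 ± 6.60 (n = 6) at 4°C, with no overlap between the genotypes at either temperature (log2 difference -1.66, limma adjusted p = 0.00100 at RT, and -1.61, adjusted p = 0.00367 at 4°C). All 9 brown adipocyte markers were detected in each group, with summed normalized counts of 184476 to 259067 at RT and, without overlap, 271562 to 330106 at 4°C. Ucp1 had the highest mean of the 9, at 108574 normalized counts over all mice, so the sum follows Ucp1 in large part. The median log2 difference by cold over the 9 markers was -0.24 in control and 0.01 in knockout mice. Cold raised 4 of the 9 (Ucp1, Elovl3, Pparg and Plin1) and lowered 3 (Cidea, Adipoq and Prdm16) in control mice, and raised 3 and lowered 1 in knockout mice. By the same test 22.3% of all genes rose and 23.7% fell in control mice, and 21.4% and 21.9% in knockout mice. The sum of 11 endothelial markers was 6859 to 9056 at RT and 10844 to 17431 at 4°C over both genotypes. Skeletal muscle markers summed to 6.22 to 41362 and varied widely within every group. Because whole tissue was sequenced, fewer cells of a type and less RNA per cell cannot be told apart in any value below.

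At RT, Epas1 was the most abundant of the 9 transcripts per length by a wide margin. On the scale of normalized counts per kilobase of exon, its level in control mice at RT was 792 ± 125 (SD, n = 6), ahead of Egln1 (178 ± 10.4), Egln2 (165 ± 67.8), Hif1a (103 ± 24.5), Arnt (76.6 ± 12.6), Vhl (59.3 ± 11.2), Hif1an (43.0 ± 11.7), Egln3 (38.0 ± 11.5) and Adm (10.7 ± 2.72). The lowest Epas1 level, 650.4 per kilobase, lay above every Egln1 level, the highest of which was 193. Adm was separated from Egln3 in the same way, at no more than 15.6 against no less than 30.2 per kilobase. All other neighbours in this order overlapped between mice. At 4°C the control order was Epas1 (674 ± 93.8, n = 5), Egln2 (393 ± 69.4), Egln1 (193 ± 71.8), Hif1a (174 ± 15.8), Hif1an (81.2 ± 9.75), Arnt (75.8 ± 9.23), Vhl (60.3 ± 7.26), Egln3 (42.5 ± 13.6) and Adm (30.7 ± 8.84). Egln2 and Hif1an had moved up in it, and here the ranges of Egln2 (329.5 to 477 per kilobase) and Egln1 (129 to 303) no longer overlapped.

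Does cold change the RNA of the oxygen-sensing pathway in BAT? In control mice 4 of the 9 genes rose at 4°C and none fell: Hif1a, Egln2, Hif1an and Adm. In knockout mice these 4 and Vhl rose, and Epas1 fell. The test was limma on log2(normalized count + 1), and a call means an adjusted p (Benjamini-Hochberg, over all 14651 genes) under 0.05. Cold changed a large share of the transcriptome: 46.0% of all genes were called in control mice (22.3% higher, 23.7% lower) and 43.3% in knockout mice (21.4% higher, 21.9% lower). Of the calls in control mice 48.5% were higher, against 38.2% with the libraries scaled to their 75th percentile, which moved the median log2 difference of all genes by -0.105 and gave Epas1 a call in control mice (-0.34, adjusted p = 0.0195) and took that of Vhl in knockout mice (adjusted p = 0.0537). The 4 of 9 called in control mice are near that background, and the 6 of 9 in knockout mice are above it, a difference that was not tested. That background also holds genes of low count. Among the 9531 genes averaging at least 50, which excludes Adm, cold was called for 5422 in control and 5070 in knockout mice. Of the set, 3 and 5 were then called. By this measure the share called in the set was below the background in control and above it in knockout mice, also untested. The median size of the log2 difference by cold was 0.23 for the 9 genes and 0.45 for all genes in control mice, and 0.40 for both in knockout mice.

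**Figure D1:**
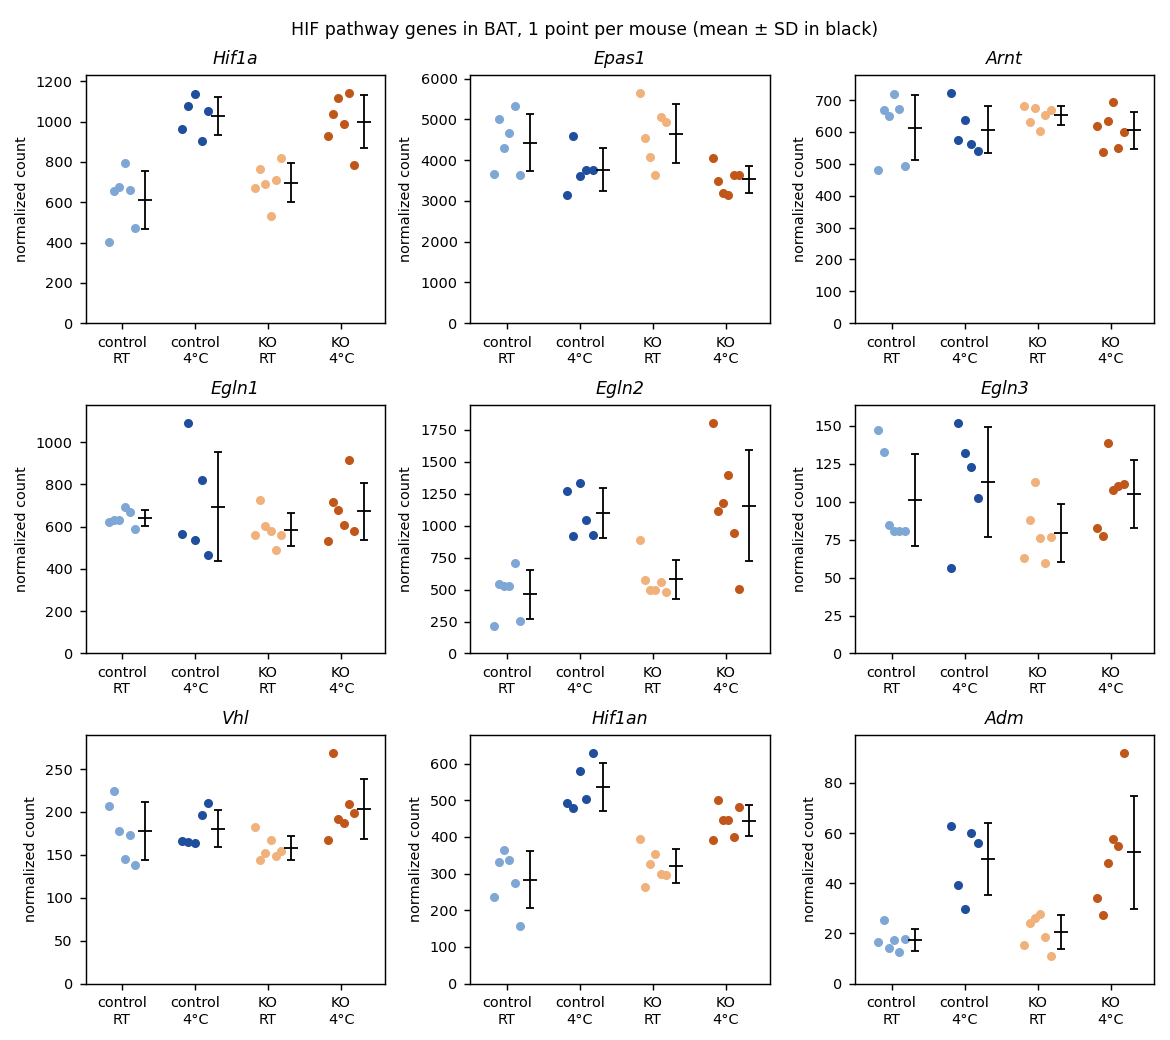
Normalized counts (linear axis from 0) of the 9 genes, 1 point for each of the 23 mice, by genotype and temperature, with the group mean ± SD in black. In control mice the points of Hif1a, Egln2, Hif1an and Adm at 4°C lie above all those at RT, and in BAT-Mcu-KO (KO) mice 5 of the 6 points at 4°C do.

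Hif1a encodes the oxygen-regulated alpha subunit of HIF-1. Its normalized counts in control mice at RT were 405, 657, 675, 793, 661 and 469.8, and at 4°C 965, 1079, 1136, 902 and 1054. Every control mouse at 4°C was above every control mouse at RT, as were 13.0% of all genes. In knockout mice the values were 672, 766, 689, 530.4, 709 and 817 at RT and 927, 1035, 1117, 987, 1142 and 784 at 4°C, where only mouse 6 at 4°C fell within the RT range. The log2 difference was 0.78 ± 0.14 (SE) in control mice, a fitted 1.72-fold rise (adjusted p = 5.82e-05), and 0.52 ± 0.13 in knockout mice, a 1.43-fold rise (adjusted p = 0.00274).

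Epas1 encodes the HIF-2α subunit, which is prominent in endothelial cells and adipocytes. In control mice it was counted at 3654, 5009, 4302, 4663, 5317 and 3636 at RT and at 3139, 4591, 3604, 3762 and 3749 at 4°C, with broad overlap (log2 difference -0.23 ± 0.12, adjusted p = 0.113). Knockout mice had 5646, 4530.2, 4075, 3627, 5060.0 and 4941 at RT and 4051, 3496, 3204, 3136, 3631 and 3644 at 4°C. All 6 of the latter were under the RT median, and the log2 difference was -0.39 ± 0.11 (adjusted p = 0.00634). The difference between the genotypes in this response was not called (interaction -0.16, 95% interval -0.49 to 0.17, adjusted p = 0.908), so the fall in one genotype is not shown to differ from the value in the other. Arnt, which encodes the shared beta subunit, had log2 differences by cold of -0.01 ± 0.10 in control and -0.11 ± 0.10 in knockout mice, and its normalized counts stayed between 479 and 722 in all 23 mice.

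To set both alpha subunit genes side by side, the share of Hif1a in their summed level per kilobase was computed for each mouse. It was 9.51% to 13.9% in control mice at RT (mean 11.5% ± 1.63) and 18.2% to 23.01% at 4°C (20.7% ± 2.23). In knockout mice it was 10.1% to 13.8% at RT (12.5% ± 1.47) and 16.9% to 24.8% at 4°C (21.2% ± 3.15). In both genotypes every cold mouse was above every RT mouse in this share, and Epas1 still made up at least 75.2% of the sum in every mouse. The share is built from the Hif1a and Epas1 counts given above, so it is not a further test of them. How often the shares of other gene pairs separate the temperatures was not computed. The lengths are those of all annotated exons, so a shift between isoforms could change the level of these shares.

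**Figure D2:**
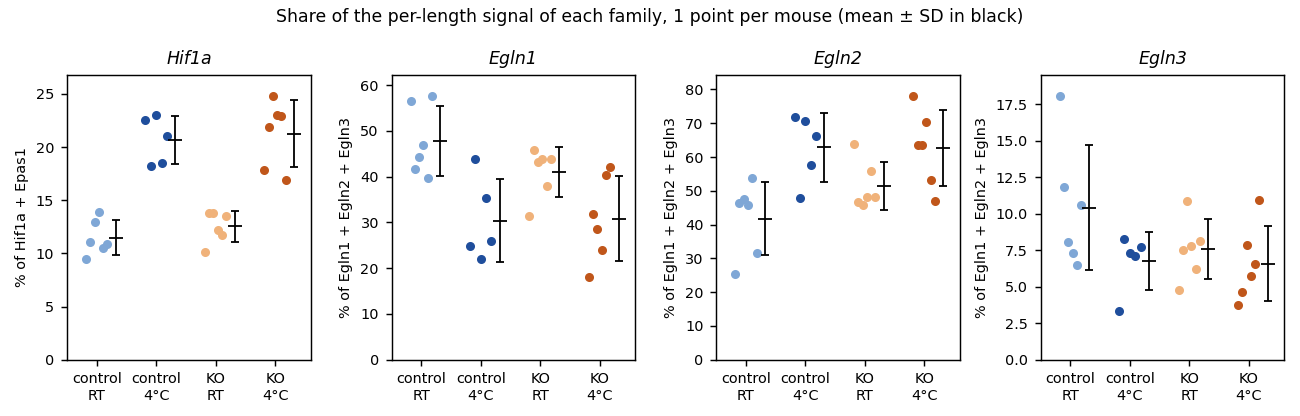
Shares in percent (linear axes from 0), 1 point per mouse with the group mean ± SD in black, of Hif1a in the summed normalized counts per kilobase of Hif1a and Epas1, and of Egln1, Egln2 and Egln3 in the sum of these 3 genes. The Hif1a share at 4°C lies above the RT share without overlap in both genotypes, at 16.9% or more against 13.9% or less. No background of other gene pairs was computed for it.

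Among the prolyl hydroxylases, Egln2, which encodes PHD1, rose, while Egln1 and Egln3, which encode PHD2 and PHD3 and are themselves known HIF targets, were not called. Egln2 was counted at 217, 547, 527, 529.8, 707 and 252 in control mice at RT and at 1274, 923, 1337, 1045 and 926 at 4°C, again without overlap. Knockout mice had 885, 572, 499.8, 495, 559.5 and 479.7 at RT and 1802, 1114, 1178, 1400.4, 942 and 503 at 4°C. The spread in this last group was the widest of any Egln2 group (SD 436), from mouse 6, in the RT range, to mouse 1 at 1802. The log2 difference was 1.35 ± 0.28 in control (2.55-fold, adjusted p = 0.000267) and 0.92 ± 0.26 in knockout mice (1.90-fold, adjusted p = 0.00623).

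Egln1 spanned 589.9 to 695 in control mice at RT and 464 to 1089.6 at 4°C, so the groups differed more in spread (SD 37.2 and 258) than in mean. Its log2 difference by cold was 0.05 ± 0.16 (95% interval -0.29 to 0.38) in control and 0.19 ± 0.15 (-0.13 to 0.50) in knockout mice. Egln3 was low, at 56.6 to 152 over all 23 mice, with log2 differences of 0.14 ± 0.23 (-0.33 to 0.60) and 0.40 ± 0.22 (-0.05 to 0.85). The share of Egln2 in the summed level per kilobase of the 3 genes was 41.7% ± 10.9 in control mice at RT and 62.8% ± 10.1 at 4°C, and 51.4% ± 7.02 and 62.6% ± 11.3 in knockout mice. In this share the RT and 4°C mice overlapped in both genotypes.

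Hif1an encodes FIH, the asparaginyl hydroxylase. It was counted at 237, 333, 363, 337, 275 and 157 in control mice at RT and at 492, 479.6, 580.0, 503 and 628 at 4°C, without overlap. Knockout mice had 394, 264, 327, 354, 298 and 295 at RT and 390.4, 499.8, 447, 447, 401 and 481 at 4°C, where mouse 1 was just inside the RT range. The log2 difference was 0.96 ± 0.16 in control (1.95-fold, adjusted p = 1.71e-05) and 0.47 ± 0.15 in knockout mice (1.39-fold, adjusted p = 0.0127). Vhl encodes the substrate receptor of the ligase that recognizes hydroxylated HIF-α. It lay between 138 and 224 in control mice at both temperatures (log2 difference 0.04 ± 0.13). Knockout mice had Vhl counts of 182, 144, 152, 168, 149 and 154 at RT and 167, 268, 192, 188, 209 and 199 at 4°C, so 5 of the 6 cold mice were above all 6 RT mice (log2 difference 0.35 ± 0.13, adjusted p = 0.0250). This call was lost without knockout mouse 2 at RT (adjusted p = 0.0535) or mouse 2 at 4°C (adjusted p = 0.0828).

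Adm was the lowest of the 9, resting on 11 to 110 reads per mouse. Its normalized counts in control mice were 16.7, 25.2, 14.2, 17.4, 12.4 and 17.9 at RT and 62.7, 39.5, 29.9, 60.2 and 56.1 at 4°C, without overlap. In knockout mice they were 15.5, 24.1, 26.3, 27.8, 18.6 and 10.9 at RT and 34.2, 27.2, 47.9, 57.6, 55.0 and 91.8 at 4°C, where mouse 2 was within the RT range. The log2 difference was 1.45 ± 0.29 in control (2.73-fold, adjusted p = 0.000190) and 1.27 ± 0.27 in knockout mice (2.41-fold, adjusted p = 0.000525). These were the highest fitted rises of the 9 genes in either genotype, and on the log2(normalized count + 1) scale they understate the change of so low a gene.

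Control mice 1 and 6 at RT were the 2 lowest of their group in 6 of the 9 genes: Hif1a, Epas1, Arnt, Egln1, Egln2 and Hif1an. In Egln2 they had 217 and 252 normalized counts against 527 to 707 in the other 4 mice. Their brown adipocyte marker sums were 249146 and 259067, against 185864 to 202081 in the others, and mitochondrial genes took 33.8% and 34.5% of their reads against 23.1% to 33.3%. In 5 of the 9 brown adipocyte markers these mice were the 2 highest of their group. The part of these differences in the results was not tested. Without both mice the log2 differences by cold in control were 0.56 for Hif1a (adjusted p = 0.000530), 0.92 for Egln2 (adjusted p = 0.00406), 0.71 for Hif1an (adjusted p = 4.40e-05) and 1.46 for Adm (adjusted p = 0.00107), all still called. Epas1 moved to -0.36 and was then called lower (adjusted p = 0.0157), which gives 5 genes in place of 4.

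**Figure D3:**
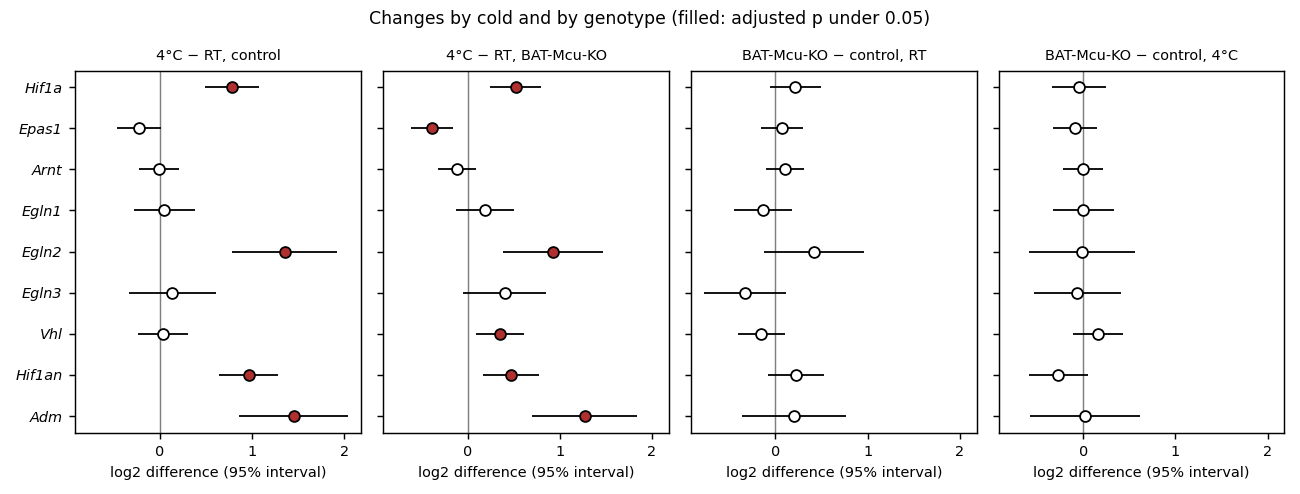
Log2 differences of the 9 genes with 95% intervals from limma, by cold in each genotype and by genotype at RT and at 4°C. Filled points have an adjusted p under 0.05 and occur in the cold panels alone, 4 in control mice and 6 in knockout mice.

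None of the 9 genes was called by genotype at either temperature. Over all genes the genotype was called for 0.0478% at RT, 7 genes, and 0.0751% at 4°C, 11 genes. At an unadjusted p under 0.05, limma found none of the 9 at either temperature, against 5.15% and 6.98% of all genes, and DESeq2 and edgeR on the recovered reads called none of the 9. At RT the log2 differences, BAT-Mcu-KO minus control, ran from -0.33 for Egln3 to 0.42 for Egln2, with the smallest adjusted p at 0.967. Taken over the 9 genes, the 95% intervals reached from -0.78 to 0.96. For Hif1a (0.22), Epas1 (0.07), Arnt (0.10), Egln2 (0.42) and Hif1an (0.22) the sign turned without control mice 1 and 6 (to -0.0061, -0.064, -0.055, -0.013 and -0.028).

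At 4°C the genotype differences ran from -0.27 for Hif1an to 0.16 for Vhl. Hif1an was lower in all 6 knockout mice than the control median, and in 4 of them lower than every control mouse (log2 difference -0.27, 95% interval -0.59 to 0.05, adjusted p = 0.777). All 6 knockout mice were above the control median in Vhl (log2 difference 0.16, -0.11 to 0.44, adjusted p = 0.839). Neither is called.

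The response to cold itself was compared between the genotypes by the interaction of genotype and cold. Limma called 0 of the 14651 genes (0%) at an adjusted p under 0.05, edgeR 0 and DESeq2 28, and none of these was among the 9. At an unadjusted p under 0.05 limma found 878 genes (5.99%), and 1 of the 9, Hif1an, whose rise by cold was smaller in knockout mice (interaction -0.49, 95% interval -0.94 to -0.05, adjusted p = 0.805). Without control mice 1 and 6 at RT the Hif1an value was -0.24. For Vhl the interaction was 0.32 (-0.06 to 0.69, adjusted p = 0.850). The other 7 lay between -0.43 for Egln2 and 0.27 for Egln3.

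Genes with the nearest profile over the 23 mice were sought for the 4 genes that cold raised in control mice, by the root mean square difference between centred log2 values over genes whose mean normalized count was at least 50. For Hif1a the nearest was Tspyl1 (0.13), and the nearest pairs were Ube4b (0.27) and Glud1 (0.27) for Egln2, Xpot (0.16) and Eaf1 (0.20) for Hif1an, and Tnfrsf12a (0.37) and Fxyd5 (0.40) for Adm. The smaller the value, the more alike the profiles, and Adm, the gene with fewest reads, had the least close neighbours. This is a description of profiles that share the same 23 libraries.

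Among HIF target genes more rose than fell in the cold, in both genotypes and with each scaling of the libraries that was tried. Of 50 genes listed as HIF targets 46 were measured, and in control mice 18 rose, 5 fell and 23 were not called, with a median log2 difference of 0.21 against -0.02 over all genes. In knockout mice 22 rose, 6 fell and 18 were not called (median 0.37, all genes -0.02). Of the target genes called in control mice, 20 were called in knockout mice too, all in the same direction, which is 87.0% of the 23 called in control and 71.4% of the 28 called in knockout mice. By the background shares above, 50% of the measured targets were called in control mice against 46.0% of all genes, and 60.9% in knockout mice against 43.3%. The list was chosen with earlier results of these data known, so its values beside those of all genes are a description and not an independent test. Leaving out single mice gave 21 to 26 called targets in control and 23 to 29 in knockout mice. Some knockout calls were borderline. That of Bnip3 (limma adjusted p = 0.0460) was lost without any one of 17 mice, and that of Ankrd37 (adjusted p = 0.0464) without any one of 16.

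**Figure D4:**
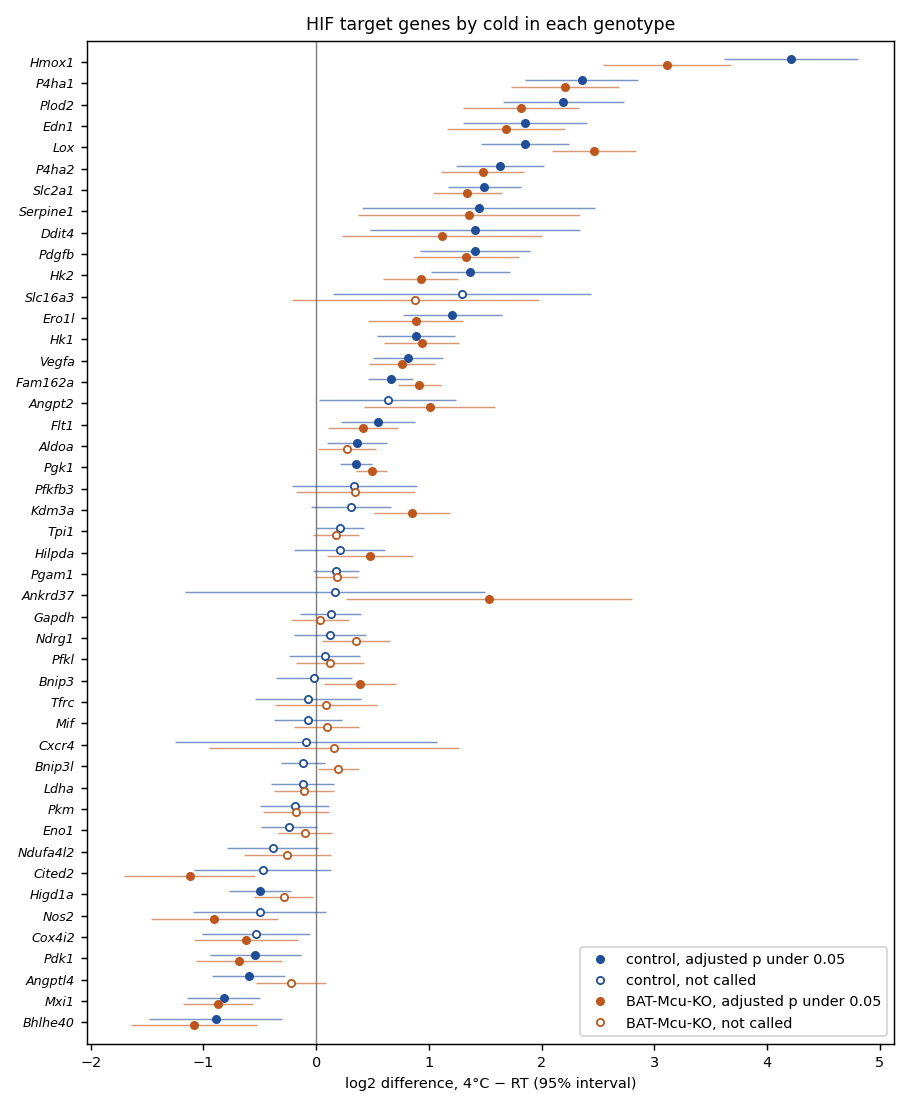
Log2 difference by cold (4°C minus RT) with 95% intervals for the 46 measured HIF target genes, in control and in knockout mice, ordered by the value in control. Filled points have a limma adjusted p under 0.05. Values run from -0.89 for Bhlhe40 to 4.21 for Hmox1 in control mice.

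Hmox1, which encodes heme oxygenase 1, had the highest rise of the list. In control mice it went from 68.4, 80.5, 98.2, 80.5, 62.1 and 110.2 normalized counts at RT to 3060.4, 646, 1208, 1422 and 2492 at 4°C (log2 difference 4.21 ± 0.29, adjusted p = 1.72e-11). In knockout mice it went from 84.6, 66.4, 75.2, 104, 94.8 and 60.2 to 1092, 654, 469.7, 552, 564 and 1073 (3.11 ± 0.27, adjusted p = 1.29e-09). At 4°C 3 of the 6 knockout values were under the lowest control value. This difference between genotypes, chosen after its values were seen, was -1.14 (95% interval -1.73 to -0.55) with a limma adjusted p of 0.253, with DESeq2 -1.27 (adjusted p = 0.0351), with edgeR -1.26 (adjusted p = 0.0967) and without control mouse 2 at 4°C -1.45 (limma adjusted p = 0.0461). No other gene of the list was called by genotype or by the interaction with all mice in the fit.

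The other 5 of the 6 highest rises of the list in control mice were those of P4ha1, Plod2, Edn1, Lox and P4ha2. P4ha1 and P4ha2, which encode catalytic subunits of the collagen prolyl hydroxylase, rose by 2.36 and 1.63 in control and 2.21 and 1.48 in knockout mice on the log2 scale. Plod2, a lysyl hydroxylase gene, rose by 2.19 and 1.82, and Lox, which encodes the collagen cross-linking enzyme lysyl oxidase, by 1.85 and 2.47. Edn1, which encodes the vasoconstrictor endothelin 1, rose by 1.85 and 1.68. In all 5 genes and both genotypes every 4°C mouse was above every RT mouse. Over all genes this held for 13.0% in control and 12.4% in knockout mice. The 5 were picked by the size of their rise in these control mice, so the lack of overlap there was largely set by that choice.

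The genes of glucose uptake and glycolysis in the list were grouped after their values were seen. Slc2a1, the glucose transporter gene, rose by 1.49 and 1.34, Hk2 by 1.37 and 0.93, Hk1 by 0.89 and 0.94 and Pgk1 by 0.35 and 0.49 in control and knockout mice. Ldha, at a mean of 19261 normalized counts in control mice at RT one of the most abundant of the list, was not called (-0.12 ± 0.14, adjusted p = 0.503, and -0.11 ± 0.13, adjusted p = 0.525). Aldoa rose in control mice (0.36, adjusted p = 0.0257), a call lost with scaling to the 75th percentile (adjusted p = 0.107), without control mice 1 and 6 at RT together (adjusted p = 0.102) and without control mouse 1 at RT or 2 or 3 at 4°C (adjusted p up to 0.0708), and was at 0.27 (adjusted p = 0.0786) in knockout mice. Pfkfb3, Pfkl, Tpi1, Gapdh, Pgam1, Eno1 and Pkm were called in neither genotype, with log2 differences from -0.24 for Eno1 to 0.34 for Pfkfb3 in control mice. Eno1 was called lower in control mice with scaling to the 75th percentile (-0.35, adjusted p = 0.0193) and without control mouse 2 at 4°C (adjusted p = 0.0498) or knockout mouse 5 at RT (adjusted p = 0.0462). Tpi1 was called higher in control mice without control mouse 4 at 4°C (adjusted p = 0.0476), and in knockout mice Pgam1 was without knockout mouse 4 at 4°C (adjusted p = 0.0334) and Aldoa without knockout mouse 3 at RT (adjusted p = 0.0452). Vegfa, the endothelial growth factor gene, rose by 0.82 and 0.76. Pdk1, a known HIF-1 target whose product holds pyruvate out of the mitochondrion's oxidation, fell by 0.54 on the log2 scale in control and by 0.68 in knockout mice. The part of HIF-1 in this was not tested. Bhlhe40 (-0.89 and -1.09) and Mxi1 (-0.82 and -0.87), which encode transcriptional repressors, fell in both genotypes. Angptl4, a secreted inhibitor of lipoprotein lipase (-0.60), and Higd1a, a mitochondrial protein gene (-0.50), fell in control mice, with values of -0.22 (adjusted p = 0.252) and -0.29 (adjusted p = 0.0696) in knockout mice. The call of Pdk1 in control mice was lost without any one of 5 mice, control mice 2, 3 and 4 at RT and 4 and 5 at 4°C (adjusted p up to 0.111, without mouse 5 at 4°C), and that of Bhlhe40 without control mouse 5 at 4°C (adjusted p = 0.0562). Higd1a was called in knockout mice without their mouse 5 at RT (adjusted p = 0.0359) or at 4°C (adjusted p = 0.0196) and with scaling to the 75th percentile (adjusted p = 0.0376).

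Of 21 partners and regulators of HIF, 18 were measured. In each genotype 7 rose, none fell and 11 were not called. The share called, 38.9%, was below that of all genes in both genotypes (46.0% in control and 43.3% in knockout mice), and the median log2 difference was 0.27 in control and 0.15 in knockout mice against -0.02 over all genes. The cytosolic chaperone genes Hsp90aa1 (2.02 and 2.36) and Hsp90ab1 (0.97 and 0.90), whose products bind HIF-1α, rose together with Usp33 (1.48 and 1.35), a deubiquitinase gene, Siah1a (1.15 and 0.68), which encodes a ligase for EGLN proteins, and Crebbp (0.62 and 0.57), a coactivator gene. Hif3a, the third alpha subunit gene, was low. It was counted at 5.32 to 47.6 in control mice at RT and 30.5 to 68.3 at 4°C, with a log2 difference of 1.35 ± 0.39 (adjusted p = 0.00557), and the value in knockout mice was 0.60 ± 0.37 (adjusted p = 0.201). Cul2 and Rbx1, the scaffold and ring subunit genes of the VHL ligase, were among those not called in either genotype, at 0.08 and -0.09 in control mice. The HIF coactivator gene Ep300 was at -0.01.

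Of 27 other oxygen-dependent dioxygenases 26 were measured, and P4ha1, P4ha2, Plod2 and Kdm3a of these also stand in the target list. In control mice 8 rose, 3 fell and 15 were not called (median 0.15), and in knockout mice 11 rose, 4 fell and 11 were not called (median 0.21). The called share was thus 42.3% in control mice, near the 46.0% of all genes, and 57.7% in knockout mice against 43.3%. Besides the collagen hydroxylase genes, Jmjd6 (0.80 and 0.79), Alkbh5 (0.75 and 0.36), which encodes an RNA demethylase, and Kdm6b (0.66 and 0.62), a histone demethylase gene, rose in both genotypes. The Alkbh5 call in knockout mice (adjusted p = 0.0458) was lost with DESeq2 (adjusted p = 0.0526), with edgeR (adjusted p = 0.0644), without the variance trend (adjusted p = 0.0695), with scaling to the 75th percentile (adjusted p = 0.0808) and on leaving out any one of 11 mice (adjusted p up to 0.102, without knockout mouse 2 at 4°C). Tet3, which encodes a DNA dioxygenase (-0.58 in both), and Fto, an RNA demethylase gene (-0.33 and -0.35), fell in both genotypes, while P4htm, a transmembrane prolyl hydroxylase gene, fell in control mice (-0.66, adjusted p = 0.0271) with -0.30 (adjusted p = 0.321) in knockout mice. The Fto call in control mice was lost without control mouse 2 or 4 at RT or 1 or 4 at 4°C (adjusted p up to 0.0776) and with the compared groups alone (adjusted p = 0.0645). The P4htm call was lost without control mouse 6 at RT (adjusted p = 0.0689) or control mouse 5 at 4°C (adjusted p = 0.0701), and without control mice 1 and 6 at RT together (adjusted p = 0.0996).

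Adrenomedullin acts on a receptor made of CALCRL and RAMP2 or RAMP3, and ACKR3 is a decoy receptor that removes it. Of 11 genes of this system 8 were measured, of which 3 rose and 2 fell in control mice and 3 rose and 3 fell in knockout mice, that is 62.5% and 75% called against 46.0% and 43.3% of all genes. Ackr3 was 399 to 1416 in control mice at RT and 3598 to 4867 at 4°C, and 478 to 884 and 3381 to 5231 in knockout mice (log2 differences 2.22 ± 0.21, adjusted p = 3.34e-09, and 2.73 ± 0.20, adjusted p = 4.67e-11). Ramp3 was 6.53 to 24.8 and 29.7 to 68.3 in control mice and 8.06 to 22.7 and 38.6 to 56.7 in knockout mice (1.22 ± 0.29, adjusted p = 0.00136, and 1.64 ± 0.28, adjusted p = 3.29e-05). Neither gene overlapped between temperatures in either genotype, and 13.0% of all genes in control and 12.4% in knockout mice were higher at 4°C without overlap. Both genes were named for their rise in these control mice, so the lack of overlap there was largely set by that choice.

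Calcrl moved the other way, from 139.8 to 238 at RT to 100.2 to 119.9 at 4°C in control mice (-0.76 ± 0.20, adjusted p = 0.00253) and from 116 to 281 to 82.2 to 149 in knockout mice (-0.58 ± 0.19, adjusted p = 0.0144). Ramp2 was at -0.28 ± 0.15 (adjusted p = 0.122) in control mice and -0.35 ± 0.14 (adjusted p = 0.0481) in knockout mice, a call that was lost with DESeq2 (adjusted p = 0.0515), edgeR (adjusted p = 0.0551) or no variance trend (adjusted p = 0.0651) and without any one of 15 mice (adjusted p up to 0.124, without knockout mouse 3 at 4°C). With scaling to the 75th percentile Ramp2 was called in control mice too (-0.39, adjusted p = 0.0364). Ramp1 was not called by limma (adjusted p = 0.110 in control and 0.161 in knockout mice). DESeq2 called it higher in control (1.17, adjusted p = 0.0277) and lower in knockout mice (-1.29, adjusted p = 0.00947), as did edgeR (adjusted p = 0.0475 and 0.0225). Its highest counts, 57.7 to 96.8, were in knockout mice 3, 4 and 6 at RT and control mice 2 and 5 at 4°C. These mice had the highest skeletal muscle marker sums (25659.5 to 41362), and the part of muscle RNA was not tested. The Calcrl call in knockout mice was lost without their mouse 6 at RT (adjusted p = 0.0526). In control mice Calcrl did not overlap between temperatures, and 12.3% of all genes were lower there without overlap. Calcrl was named for its fall in these control mice, so the lack of overlap was largely set by that choice. Mme, which encodes the peptidase neprilysin, fell by 0.35 and 0.57 on the log2 scale, in control mice not without their mouse 4 or 5 at 4°C (adjusted p = 0.0587 and 0.0512) nor with the compared groups alone (adjusted p = 0.0541), and Crcp, which encodes a receptor component, rose by 0.97 and 1.13. Several of these genes and Epas1 are prominent in endothelial cells. Of the 11 endothelial markers 5 rose (Cldn5, Kdr, Eng, Pecam1 and Esam) and 2 fell (Tie1 and Emcn) in control mice, and 5 rose and 1 fell in knockout mice, where no endothelial marker was at 0 in every mouse of a group. Of the 5 mural cell markers, none rose and 3 fell in control mice, and 1 rose and 2 fell in knockout mice. None of the 6 macrophage markers was called in control mice, and 2 rose in knockout mice. Beside these counts, 22.3% of all genes rose and 23.7% fell in control mice, and 21.4% and 21.9% in knockout mice. The part of these cell types in the changes was not tested.

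**Figure D5:**
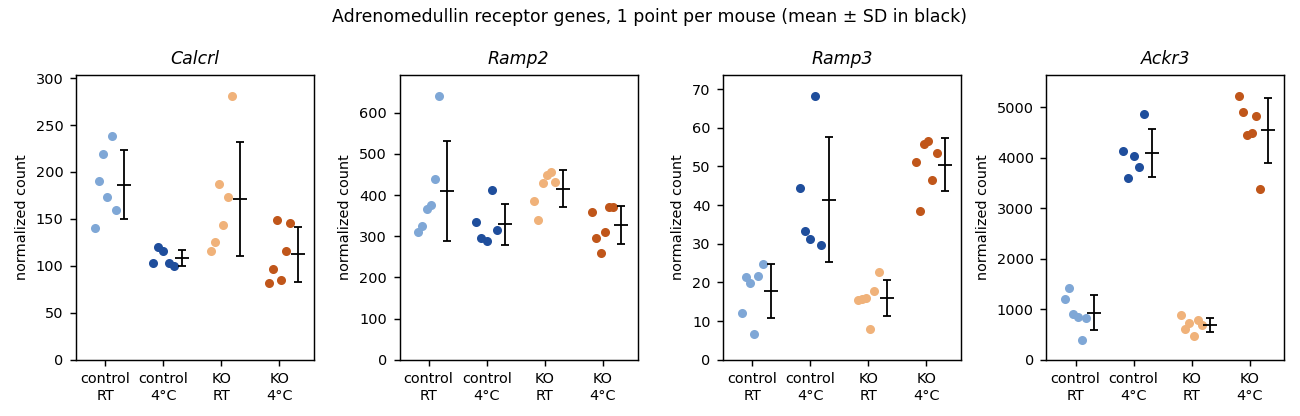
Normalized counts (linear axes from 0) of 4 genes of adrenomedullin receptors, 1 point per mouse with the group mean ± SD in black. Ramp3 and Ackr3 rose at 4°C without overlap in both genotypes, while Calcrl was lower, without overlap in control mice alone. Of all genes, 13.0% in control and 12.4% in knockout mice were higher without overlap, and 12.3% in control mice were lower.

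By genotype and by the interaction, limma called 0 genes of the target, partner, dioxygenase and adrenomedullin lists at an adjusted p under 0.05 (0.0478%, 0.0751% and 0% of all genes). The smallest adjusted p was that of Hmox1 at 4°C given above.

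On GRCm38, with GENCODE M21 positions, the 9 genes lie at chr12:73901375-73947530 (Hif1a), chr17:86753700-86833410 (Epas1), chr3:95434388-95497240 (Arnt), chr8:124908587-124949324 (Egln1), chr7:27158658-27166802 (Egln2), chr12:54178981-54203860 (Egln3), chr6:113623959-113631633 (Vhl), chr19:44562850-44576274 (Hif1an) and chr7:110627661-110629820 (Adm). Egln1, Egln2 and Egln3 are on the minus strand and the others on the plus strand. Exons of Hif1a share 330 bases with the antisense gene Gm15283, whose mean normalized counts were 7.77 to 10.8 in the 4 groups, and 148 bases with Gm49321, and exons of Egln2 share 11 bases with Cyp2t4. Reads were counted without regard to strand, so in these stretches the genes cannot be told apart.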

How the data were processed

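RNA was isolated from the BAT of 23 mice, and libraries were made by Smart-seq2 and sequenced from both ends. Alignment by the authors was with STAR version 2.4.0j to mm10 (GENCODE M7), and HTSeq counted uniquely mapped exon reads without using strand. Each gene kept had 8 reads or more in 6 samples or more. The deposited signal is the count of a gene divided by the size factor that DESeq2 gave its sample. Their table of fold changes and p-values was not used. Groups came from the sample labels, and the number of sample columns left out was 0. The values were whole multiples of 1 read (100% of values within 0.01 reads), which gave the depths. Read numbers cover counting error only, since PCR copies are not independent. The same number in different groups marks different mice.

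Normalized counts were tested as log2(value + 1) with limma version 3.58.1 (R version 4.3.3), with 4 group means in 1 model, a variance trend and Benjamini-Hochberg adjustment over 14651 genes (adjusted p under 0.05). The 4 differences and their interaction were taken. Alternatives were pseudocounts of 0.5 and 10, genes with a mean of 50 or more, scaling to the 75th percentile, no trend, the compared groups alone, a replicate block, DESeq2 version 1.42.0 and edgeR version 4.0.16 on recovered reads, and leaving out each mouse. Leaving out control mice 1 and 6 at RT together was added after the values were seen. The 9 genes and the lists were chosen with earlier results of these data known. Genes named were the 9, Mcu, up to 6 per direction and list by size of the cold difference in control, list genes called by genotype and the 2 nearest profiles, of which 1 is not reported here. The fit was tested on simulated data. For cold in control, with 14525 genes tested, limma found 16 of 65 genes changed 1.5-fold, 39 of 69 changed 2-fold and 60 of 66 changed 4-fold. Limma made 6 false calls, and differences by genotype were not simulated. In the real data cold was called for a far larger share, 46.0% of all genes in control mice. How many changes limma finds when so large a share changes was not tested. Levels per kilobase used all annotated exons (GENCODE M21). Nothing says that the mice of a group were bred or dissected independently, so p-values measure the spread between these samples. Tables were read with pandas version 2.3.3 and figures drawn with matplotlib version 3.10.9 (Python version 3.11.15).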

Additional observations from a re-analysis of the deposited data

Results flagged for a closer look

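Egln2 in BAT-Mcu-KO mouse 1 at RT, at 885 normalized counts, lay far above the other 5 mice of its group (479.7 to 572). The gap to the next mouse was 0.773 of the whole range of the group, over Dixon's critical value of 0.625 for 6 samples. Of 36 gene and group combinations looked at this was the 1 that passed, and chance passes about 1 in 20.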

How the results depend on the processing

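Of the 9 genes, 3 to 5 were called by cold in control mice and 5 or 6 in knockout mice under every alternative, and 0 were called by genotype or interaction. The rises of Hif1a, Egln2, Hif1an and Adm were called in both genotypes throughout, except that Adm was not tested among genes with a mean of 50 or more. Scaling to the 75th percentile moved the median of all genes by -0.105 for cold in control and the share of higher calls from 48.5% to 38.2%. With it Epas1 was called in control (-0.34, adjusted p = 0.0195), Vhl was not called in knockout mice (0.30, adjusted p = 0.0537), and by cold in control Egln1 (-0.062) and Vhl (-0.072) turned sign, as did Arnt (0.027) and Egln2 (0.016) by genotype at 4°C. Targets called were then 17 higher of 26 in control and 18 higher of 25 in knockout mice. DESeq2 turned Arnt (0.000259), Egln1 (-0.047) and Egln2 (0.0716) by genotype at 4°C, and edgeR Egln1 (-0.048) and Egln2 (0.0722). Without control mice 1 and 6 at RT, the genotype differences at RT turned for Hif1a (-0.0061), Epas1 (-0.064), Arnt (-0.055), Egln2 (-0.013) and Hif1an (-0.028), and the interactions of Arnt (0.052) and Egln2 (0.000432). None of the turned values was called, and the cause was not tested. Leaving out single mice gave values from -0.074 to 0.043 for Arnt, -0.13 to 0.17 for Egln1 and -0.032 to 0.11 for Vhl by cold in control. By genotype at 4°C it gave -0.093 to 0.020 for Hif1a, -0.043 to 0.062 for Arnt, -0.12 to 0.18 for Egln1, -0.16 to 0.21 for Egln2, -0.29 to 0.060 for Egln3 and -0.16 to 0.18 for Adm. Epas1 was called in control without control mouse 2 at 4°C (-0.30, adjusted p = 0.0422). By genotype at 4°C Lox (0.91) and Bnip3 (0.71) were called without control mouse 1 at 4°C (adjusted p = 0.0205 and 0.00121), and not otherwise.

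The replicate numbers did not pair the mice. Deviations of mice with the same number correlated at r = -0.594 to 0.499, and in 0 of 6 pairs of groups were all correlations over 0.1. Of 66 comparisons of a mouse with another group, 10 were closest to the mouse of the same number. With the replicate block the number called by cold was again 4 in control and 6 in knockout mice, and by genotype at 4°C Arnt (0.016) and Egln2 (0.13) turned sign. Over all genes the genotype calls moved by over 1.5 times: 7 at RT became 20 with DESeq2 and 3 with the compared groups alone or without control mice 1 and 6, and 11 at 4°C became 27 with DESeq2, 7 without the trend or with the block, 6 with edgeR and 2 with the compared groups alone. Leaving out single mice gave 5 to 8 at RT and 3 to 16 at 4°C. Depth limited Adm most, which had as few as 11 reads in a mouse.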
